A study of Mus musculus with 4 samples.

Results

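Of the 23356 gene rows of the deposited table, 10 were examined here: the nuclear receptor genes Rxra, Rxrb, Vdr, Rara, Rarg, Pparg, Ppard, Nr3c1, Nr1d1 and Nr1d2, taken by symbol as ligand-controlled receptors outside the ROR, Nr4a and liver X receptor groups. T helper 17 (Th17) cells, CD4 T cells that make IL-17, were grown in vitro for 48 h from wild-type C57BL/6 mice aged 6 to 8 weeks. The 4 RNA libraries fall into a vehicle group of 2, whose treatment label is none, and an SAA1 group of 2, whose cells received recombinant murine SAA1 (serum amyloid A1, a protein of the acute-phase response) at a labelled dose of 2 ng/ml. All cells shared the Th17 culture, whose added cytokines the labels do not list, and they do not say whether the libraries of a group came from separate mice or cultures. The p-values therefore rest on these libraries alone, whose spread may be technical. How the authors' test set the variance of each gene is not given, so a p-value need not measure that gene's own spread.

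Nuclear receptors are transcription factors that bind DNA and are switched by small lipophilic ligands. The retinoid X receptors (RXRs) pair with the vitamin D receptor, the retinoic acid receptors (RARs), the thyroid hormone receptors and the peroxisome proliferator-activated receptors (PPARs), so that receptors of several hormones share the same partners. The glucocorticoid receptor binds DNA mainly as a homodimer, and the REV-ERB receptors are heme-binding repressors of the circadian clock. In T cells, retinoic acid directs gut homing and shapes the balance of regulatory and Th17 cells, while vitamin D and glucocorticoids are known to restrain inflammatory cytokines.

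Cuffdiff, as run by the authors, gave each gene 1 value per group in FPKM, a unit of fragments per transcript length and per mapped fragments. How the libraries were scaled to each other is unknown. The 2 libraries of a group are merged in it, so no value per library and no spread between libraries can be shown. The depth of the libraries is unknown. A gene was called when its adjusted p over all 11481 tested genes, taken from the authors' deposited table, was under 0.05. By that rule 6.52% of tested genes were called, 3.97% higher and 2.55% lower with SAA1. Each log2 ratio is SAA1 over vehicle, and its standard error (SE) and 95% interval are those implied by the authors' test statistic. All 7 T cell identity markers were expressed, among them Lck at 303 and 304 FPKM and Cd3g at 180.2 and 167 FPKM with vehicle and SAA1. Their summed level was 1031 and 972 FPKM, with Thy1 called higher and Cd3e called lower. The Th17 cytokine gene Il17a was at 56.0 and 568 FPKM. Other blood cells were represented by 13 markers, of which 12 stayed under 1 FPKM in both groups. Their summed level was 6.41 and 5.63 FPKM, of which Cd8b1, a CD8 T cell chain, gave 4.32 and 4.24. The other CD8 chain, Cd8a, was at 0.164 and 0.103 FPKM and was not tested. C1qa of macrophages and Klrb1c of natural killer cells were the only 2 of the 13 at 0 in both groups. Other myeloid markers had low values above 0, such as Lyz2 at 0.178 and 0.0261 FPKM and Cd14 at 0.169 and 0.229 FPKM. Among B cell markers, Cd79a, at 0.440 and 0.236 FPKM, and Ms4a1, at 0.289 and 0.204 FPKM, were not tested.

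All 10 receptors were tested by the authors, and 2 of the 10 were called, where 6.52% of all tested genes were. Vdr was the 1 called higher and Rxra the 1 called lower. Of the other 8, 3 had an unadjusted p under 0.05 from the authors' deposited table (Nr1d1, Rarg and Nr1d2), as had 1819 of all 11481 tested genes, or 15.8%. By a normal p of the test statistic, Nr1d1 alone of the 3 was under 0.05 before adjustment. The median log2 ratio of the 10 was 0.10, beside -0.02 over tested genes, with 6 ratios above 0 and 4 below.

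**Figure D1:**
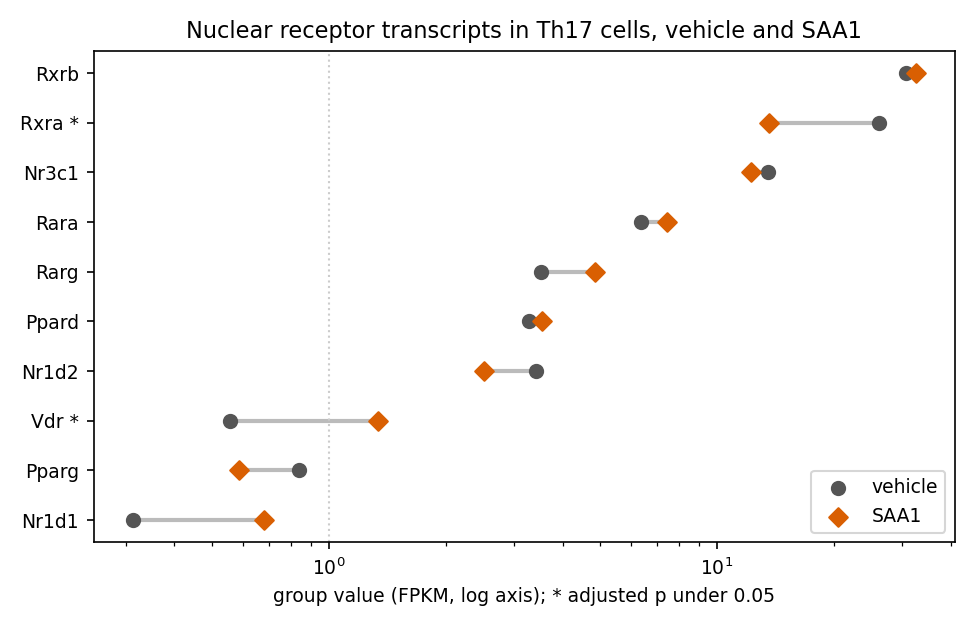
Group values of the 10 receptors in FPKM on a log axis, with vehicle as grey circles and SAA1 as orange diamonds, a line joining the 2 values of a gene, a dotted line at 1 FPKM and an asterisk for an adjusted p under 0.05. The gaps of Vdr (0.559 to 1.34 FPKM) and Rxra (26.1 to 13.6 FPKM) are those called, and Nr1d1 has a gap of similar width at a lower level.

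With vehicle, the levels per transcript length ran from 30.6 FPKM for Rxrb through Rxra (26.1), Nr3c1 (13.5), Rara (6.36), Rarg (3.52), Nr1d2 (3.43), Ppard (3.29), Pparg (0.841) and Vdr (0.559) to 0.313 FPKM for Nr1d1. With SAA1 the order was Rxrb (32.5), Rxra (13.6), Nr3c1 (12.2), Rara (7.42), Rarg (4.86), Ppard (3.55), Nr1d2 (2.51), Vdr (1.34), Nr1d1 (0.683) and Pparg (0.587). The first 5 places were held by the same receptors in the same order in both groups. Whether neighbours in either order differ beyond the spread between libraries cannot be read from group values. At least 1 FPKM in both groups was reached by 7 of the 10, and Vdr passed 1 FPKM with SAA1 alone.

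Rxra, which encodes RXRα, fell with SAA1. Its level was 26.1 FPKM with vehicle and 13.6 FPKM with SAA1, 1.92-fold lower. The log2 ratio was -0.94 ± 0.20 (SE), with a 95% interval from -1.34 to -0.54 and an adjusted p of 0.00191 from the authors' deposited table, the smallest value it holds. Among the 293 genes called lower, Rxra was at place 89 by fold, and their median log2 ratio was -0.72. In RNA of whole cultures, fewer cells of a type and less RNA per cell cannot be told apart. On mm10, Rxra spans chromosome 2 from 27677201 to 27763319 on the plus strand.

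Rxrb, the gene of its paralogue RXRβ, was the most abundant of the 10 and was not called. It stood at 30.6 and 32.5 FPKM, with a log2 ratio of 0.08 ± 0.21, a 95% interval from -0.32 to 0.49 and an adjusted p of 0.91 from the authors' deposited table. Rxrb lies on chromosome 17 from 34031812 to 34038403. The log2 ratio of Rxra was below that of Rxrb by 1.03 ± 0.29, an SE that takes both ratios as independent. Rxra made up 46.0% of the summed RXR transcripts with vehicle and 29.5% with SAA1, and the sum itself went from 56.8 to 46.04 FPKM. The third RXR gene, Rxrg, was listed at 0 in both groups.

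Vdr, which encodes the vitamin D receptor, rose from a low level. Its value was 0.559 FPKM with vehicle and 1.34 FPKM with SAA1, 2.40-fold higher. The log2 ratio was 1.26 ± 0.35, with a 95% interval from 0.57 to 1.95 and an adjusted p of 0.00191 from the authors' deposited table. With 1 FPKM added to both values the log2 ratio was 0.58. Among the 456 genes called higher, Vdr was at place 107 by fold, and their median log2 ratio was 0.80. Vdr lies on the minus strand of chromosome 15, from 97854427 to 97908296.

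Vdr and Rxra, the gene of a possible dimer partner, thus stood on opposite sides of the comparison. Rxrb, the more abundant RXR gene in both groups, was not called. Rxra transcripts were 46.8-fold those of Vdr with vehicle and 10.2-fold with SAA1, both per transcript length. The 5 members that pair with RXR (Vdr, Rara, Rarg, Pparg and Ppard) summed to 14.6 FPKM with vehicle and 17.8 FPKM with SAA1. Both RXR genes together were 3.90-fold that sum with vehicle and 2.59-fold with SAA1. These sums carry no test, and they leave out RXR partners that are not among the members, such as the thyroid hormone receptors.

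The stretches just upstream of RefSeq starts are shown for Rxra and Vdr, the receptors that were called. They are from RefSeq's GRCm38.p6 promoter table (mm10), written 5′ to 3′ on the gene's strand and ending at the start site, except that 14 bases of Vdr that GENCODE M21 places in an exon are left out. Rxra has 2 RefSeq starts, and the deposited values do not separate them. By GENCODE M21 each of these windows lies inside its gene, since Rxra starts at 27676440 and Vdr, on the minus strand, at 97910630. GENCODE thus places starts further upstream, and the stretches before those are not shown. Capitals mark the GC box GGGCGG, a binding motif of Sp-family factors, and the nuclear receptor half-site AGGTCA, each on either strand.
Rxra, first start, chr2:27676951-27677200, plus strand: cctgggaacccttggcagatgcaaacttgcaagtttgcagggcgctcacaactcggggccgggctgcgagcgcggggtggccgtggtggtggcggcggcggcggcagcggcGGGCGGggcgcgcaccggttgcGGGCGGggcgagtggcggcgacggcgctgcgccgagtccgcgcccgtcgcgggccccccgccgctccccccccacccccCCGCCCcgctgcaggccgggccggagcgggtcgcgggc
Rxra, second start, chr2:27709042-27709291, plus strand: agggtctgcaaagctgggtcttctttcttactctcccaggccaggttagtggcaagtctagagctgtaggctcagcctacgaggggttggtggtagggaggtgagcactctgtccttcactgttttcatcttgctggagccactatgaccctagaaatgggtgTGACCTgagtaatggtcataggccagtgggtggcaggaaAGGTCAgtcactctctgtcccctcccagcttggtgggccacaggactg
Vdr, chr15:97908311-97908546, minus strand: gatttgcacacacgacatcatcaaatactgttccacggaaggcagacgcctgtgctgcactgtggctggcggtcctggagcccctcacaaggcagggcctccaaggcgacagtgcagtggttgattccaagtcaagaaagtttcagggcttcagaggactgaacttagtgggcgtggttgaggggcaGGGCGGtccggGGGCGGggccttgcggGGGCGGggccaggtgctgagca

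Before its first start Rxra has 3 GC boxes, whose first bases lie 139, 117 and 38 bases before the start, and a GC content of 81.2%, against a median of 52.4% over all 32851 RefSeq windows of 250 bases. The window before its second start has no GC box and 2 half-sites, 87 and 48 bases before the start, in opposite orientation. Vdr also has 3 GC boxes, 63, 52 and 36 bases before its start, and no half-site in the window. RefSeq windows were found for 9 of the 10 receptors, all but Nr3c1, with 17 starts. A GC box was in 12 of the 17 windows, against 32.7% of all windows, and a half-site in 5 of 17, against 14.0%. The E-box CACGTG, to which clock activators bind, was in 1 of 17, a window of Rara, against 6.02% of all. The AP-1 motif TGANTCA was in 0 of 17, against 6.75% of all, and the GAS-like motif TTCNNNGAA in 1 of 17, against 7.02%. A match shows only that the letters are present, and several windows belong to 1 gene. The Rara windows that start at 98937446 and 98937468 overlap and share their GC boxes. By gene, 8 of 9 had a GC box and 4 of 9 a half-site. The GC content of the windows ran from 40.8% to 82.4%, and motif counts were not adjusted for it.

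The retinoic acid receptors were expressed at intermediate levels and neither was called. Rara, which encodes RARα, the main RAR of T cells, was at 6.36 FPKM with vehicle and 7.42 FPKM with SAA1 (log2 ratio 0.22 ± 0.23, adjusted p 0.59 from the authors' deposited table). Its 95% interval reached from 0.851-fold to 1.60-fold. Rarg, which encodes RARγ, was at 3.52 and 4.86 FPKM, 1.38 times the vehicle value, with a log2 ratio of 0.46 ± 0.26. Its adjusted p was 0.13 from the authors' deposited table, and its 95% interval ran from 0.967-fold to 1.97-fold. Rara is on chromosome 11 (98937696 to 98974942) and Rarg on chromosome 15 (102234940 to 102257483). The third RAR gene, Rarb, (0.191 and 0.227 FPKM) had no test.

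The PPARs, receptors for fatty acids and their derivatives, were not called. Ppard, which encodes PPARδ, was at 3.29 and 3.55 FPKM (log2 ratio 0.11 ± 0.27, adjusted p 0.90 from the authors' deposited table). Its locus on chromosome 17, from 28232754 to 28301469, is shared with another gene row that was listed at 0 and 0.226 FPKM. Pparg, which encodes PPARγ, the receptor best known from fat cells, stayed under 1 FPKM, at 0.841 and 0.587 (log2 ratio -0.52 ± 0.52, with 0.57 as adjusted p from the authors' deposited table). At that level the 95% interval spans 0.343-fold to 1.42-fold. Pparg lies on chromosome 6 from 115361221 to 115490401. Ppara (0.0377 and 0.0449 FPKM) had no test.

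Nr3c1, which encodes the glucocorticoid receptor, was the third most abundant of the 10 in both groups, at 13.5 FPKM with vehicle and 12.2 FPKM with SAA1. The log2 ratio was -0.15 ± 0.21 and the adjusted p 0.75 from the authors' deposited table. The 95% interval ran from 0.683-fold to 1.19-fold, one of 2 intervals among the 8 receptors not called, with that of Rxrb, that stay within a 1.5-fold change either way. Nr3c1 lies on chromosome 18 from 39410545 to 39487245.

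The REV-ERB pair had ratios of opposite sign, neither of them called. Nr1d1, which encodes REV-ERBα, was at 0.313 FPKM with vehicle and 0.683 FPKM with SAA1, a ratio of 2.18 and a log2 ratio of 1.13 ± 0.56. The unadjusted p was 0.0090 and the adjusted p 0.10 from the authors' deposited table. Nr1d2, which encodes REV-ERBβ, was the more abundant, at 3.43 and 2.51 FPKM, with a log2 ratio of -0.45 ± 0.26 and 0.14 as adjusted p from the authors' deposited table. Nr1d1 made up 8.38% of the pair's transcripts with vehicle and 21.4% with SAA1. The difference of the log2 ratios was 1.57 ± 0.62, with both taken as independent. Nr1d2 lies on chromosome 14 from 18204056 to 18239106.

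Nr1d1 (chromosome 11, 98767935 to 98775242, minus strand) is the neighbour of Thra, which runs on the plus strand. In the table the loci lie 2823 bases apart, but in GENCODE M21 the genes overlap by 1075 bases, with exons of both in the overlap. Thra, which encodes thyroid hormone receptor α, rose from 1.58 to 3.15 FPKM, a ratio of 2.00 close to that of Nr1d1. Reads from antisense exons can be told apart only when strand is used in counting, and no source used here gives the strand setting. The overlap lies beyond the deposited locus of Thra, which ends at 98765111, and within that of Nr1d1. The value of Nr1d1 is therefore the uncertain one, and whether Thra reads entered it was not tested.

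**Figure D2:**
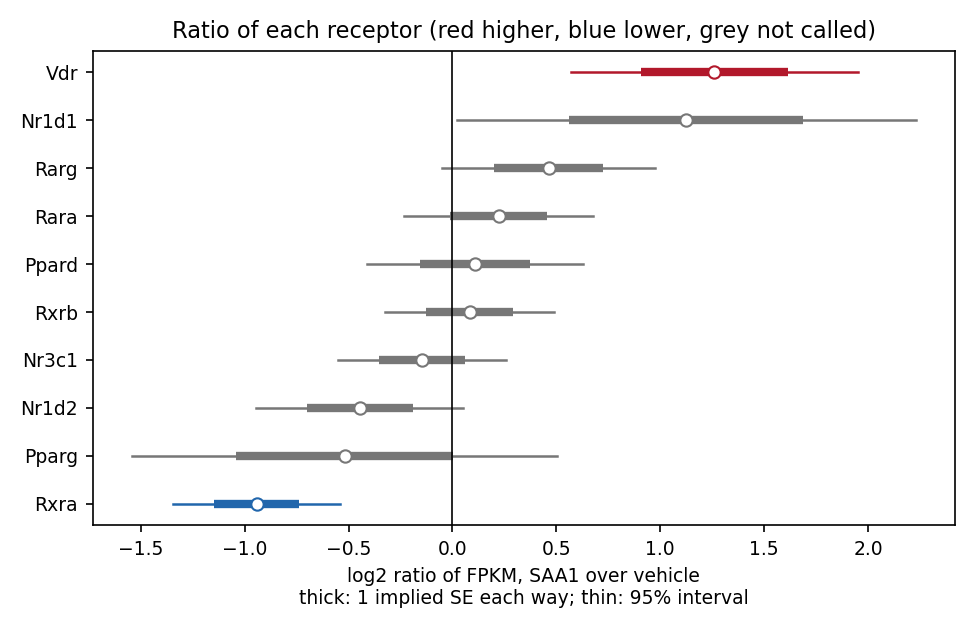
Log2 ratio of FPKM, SAA1 over vehicle, of each receptor as a point, with a thick line for 1 implied SE each way and a thin line for the 95% interval (red called higher, blue called lower, grey not called). The intervals of Vdr (0.57 to 1.95) and Rxra (-1.34 to -0.54) lie clear of 0, and that of Nr1d1 starts at 0.02.

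Among 30 further nuclear receptor genes, which leave out the ROR, Nr4a and liver X receptors, 23 were under 1 FPKM in both groups and were not tested. Of the 7 tested, 1 was called higher and 1 lower, where 6.52% of all tested genes were called. Both are thyroid hormone receptors. Thrb, which encodes thyroid hormone receptor β, fell from 2.01 to 0.796 FPKM (log2 ratio -1.34 ± 0.29, adjusted p 0.00191 from the authors' deposited table). Thra rose with a log2 ratio of 1.00 ± 0.32 and 0.00471 as adjusted p from the authors' deposited table, a call that a normal p of the test statistic did not keep (adjusted p 0.083). Thra made up 43.9% of the pair with vehicle and 79.8% with SAA1, while their sum was 3.59 and 3.94 FPKM. The most abundant of the 5 not called were Esrra, an estrogen-related receptor of energy metabolism, at 18.2 and 19.9 FPKM, and Nr2c2, an orphan receptor, at 13.7 and 15.1 FPKM. The median log2 ratio of the 7 was 0.14.

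**Figure D3:**
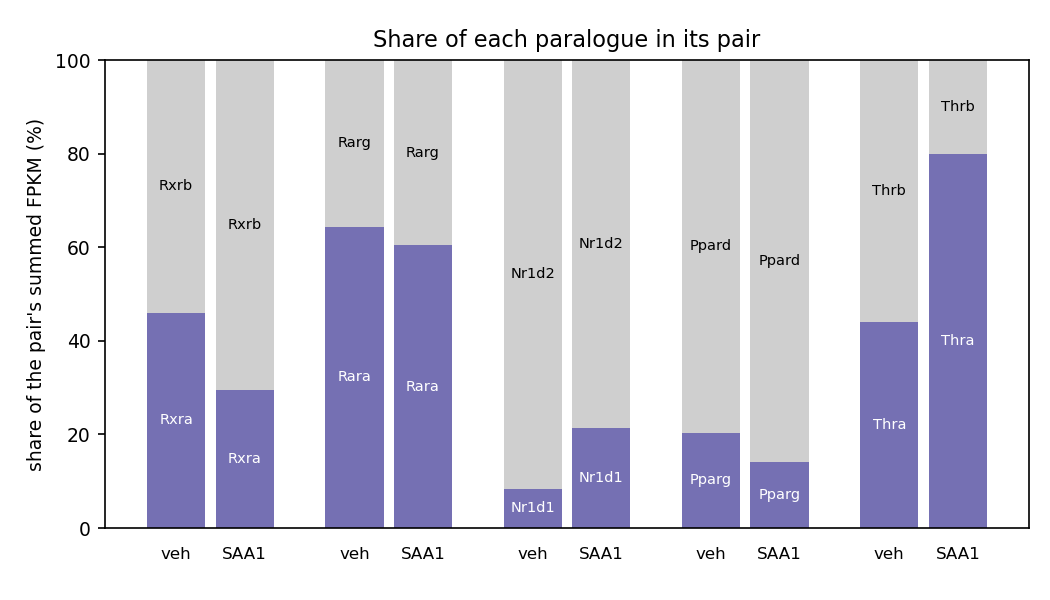
Share of each paralogue in the summed FPKM of its pair, in percent, with vehicle (veh) and with SAA1; the lower, violet part is the first gene of the pair. Rxra goes from 46.0% to 29.5%, Nr1d1 from 8.38% to 21.4% and Thra from 43.9% to 79.8%, while Rara stays between 60.4% and 64.3% and Pparg between 14.2% and 20.4%.

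The genes that handle vitamin A held a call in each direction. Stra6, the membrane receptor that takes up retinol from its carrier protein, rose from 28.4 to 46.9 FPKM (log2 ratio 0.72 ± 0.21). Dhrs3, a reductase that turns retinal back into retinol and is itself induced by retinoic acid, fell from 5.74 to 2.41 FPKM (-1.25 ± 0.32). Both had an adjusted p of 0.00191 from the authors' deposited table. They were 2 of 6 tested genes among 16, where 6.52% of all tested genes were called. Rdh11, a retinal reductase, was at 77.6 and 68.8 FPKM and Crabp2, which carries retinoic acid to RARs, at 46.7 and 51.1 FPKM, neither of them called. The other 10 genes were under 1 FPKM in both groups and not tested, among them the retinoic acid-forming Aldh1a1, Aldh1a2 and Aldh1a3 and the degrading Cyp26a1, Cyp26b1 and Cyp26c1. The median log2 ratio of the 6, taken like those of the other lists after adding 0.1 FPKM to each value, was -0.10, beside -0.02 over all tested genes.

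Genes known to respond to retinoic acid moved both ways. Of 12 genes, 6 were tested, 2 were called higher and 1, Dhrs3, lower, where 6.52% of all tested genes were called. Tgm2, a transglutaminase whose GENCODE exons overlap another gene's, rose from 6.79 to 10.9 FPKM (log2 ratio 0.68 ± 0.22) and Cd38, an ectoenzyme that uses NAD, from 0.672 to 1.61 FPKM (1.26 ± 0.41). With a normal p of the statistic the adjusted p was 0.083 for Tgm2 and 0.084 for Cd38, which ends both calls. Itgb7, a chain of the gut-homing integrin, was at 27.6 and 27.8 FPKM and Hic1, a transcription factor gene, at 11.5 in both groups, without a call. Ccr9, the gut-homing receptor induced by retinoic acid, had 0.0679 and 0.146 FPKM and no test. The median log2 ratio of the 6 was 0.0045.

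The listed genes of vitamin D metabolism and response were scarcely detected, so they cannot show whether a vitamin D response changed. All 13 were under 1 FPKM in both groups and 2 were tested. Of these 2, 0 were called by Cuffdiff and 1 had an unadjusted p under 0.05 from the authors' deposited table. Over all tested genes the shares were 6.52% and 15.8%, and 2 genes are too few to compare with them. Spp1, which encodes osteopontin, was at 0.421 and 0.924 FPKM and Cyp2r1, a vitamin D hydroxylase, at 0.437 and 0.72 FPKM, with 0.12 and 0.51 as adjusted p from the authors' deposited table. Cyp24a1, the enzyme that degrades vitamin D and a classical target of its receptor, was listed at 0 with vehicle and 0.0079 FPKM with SAA1. Cyp27b1, which makes the active hormone, was at 0.112 and 0.0691 FPKM.

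Around the glucocorticoid receptor, the chaperones were abundant and had no call, where 6.52% of all tested genes were called. Of 9 tested genes of chaperones and steroid enzymes, 0 were called by Cuffdiff. An unadjusted p under 0.05 from the authors' deposited table was held by 0 of them, where 15.8% of all tested genes had one. Hsp90ab1, the HSP90 chaperone that holds the receptor ready for ligand, was at 1035 and 994 FPKM and its co-chaperone Fkbp4 at 220.4 and 239 FPKM. The median of the 9 was 0.02. Of 11 tested genes known to respond to glucocorticoids, 2 were called higher and 0 lower, beside 3.97% and 2.55% of all tested genes. All 11 ratios were above 0, where 5372 of the 11481 tested genes were. Sgk1, a kinase that promotes Th17 responses, rose from 1.04 to 3.15 FPKM (log2 ratio 1.59 ± 0.37) and Ddit4, an inhibitor of mTORC1, from 99.6 to 145.9 FPKM (0.55 ± 0.20), with adjusted p-values of 0.00191 and 0.00593 from the authors' deposited table. With a normal p of the statistic, Ddit4 was no longer called (adjusted p 0.17). Nfkbia, which encodes the NF-kB inhibitor IkBα, was at 354 and 355 FPKM and the metallothionein Mt1 at 29.0 and 34.6 FPKM, without a call. The median of the 11 was 0.28.

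In the circadian clock, 2 of 16 tested genes were called, both higher, where 3.97% of all tested genes were called higher. Nfil3, a repressor that REV-ERBα holds down and that limits Th17 development, rose from 9.32 to 15.6 FPKM (log2 ratio 0.74 ± 0.23, adjusted p 0.00191 from the authors' deposited table). Npas2, a paralogue of the activator Clock, rose from 0.236 to 0.622 FPKM (1.40 ± 0.48, with 0.017 as adjusted p from the authors' deposited table), a level under 1 FPKM in both groups, and with a normal p of the statistic its adjusted p was 0.12. The most abundant genes without a call were the repressor Bhlhe40, at 259 and 250.5 FPKM, and the kinase Csnk1d, at 41.7 and 40.7 FPKM. The median of the 12 genes with at least 1 FPKM was 0.03.

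PPAR-responsive genes of fat metabolism and the coregulators of nuclear receptors had no call, where 6.52% of all tested genes were called. Of 13 tested PPAR-responsive genes, 0 were called by Cuffdiff and 3 had an unadjusted p under 0.05 from the authors' deposited table, where 15.8% of all tested genes did. Acadvl and Acaa2, enzymes of fatty acid oxidation, had 85.1 and 98.4 FPKM and 52.6 and 67.4 FPKM. The median of the 13 was 0.03. Of 16 tested coregulators, 0 were called by Cuffdiff and 0 had an unadjusted p under 0.05 from the authors' deposited table, with a median of -0.0040 over the 15 that reached 1 FPKM. Hdac3, the deacetylase of the corepressor complex, was at 63.5 and 64.3 FPKM and Tbl1x, a subunit of the same complex, at 46.6 and 41.2 FPKM.

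**Figure D4:**
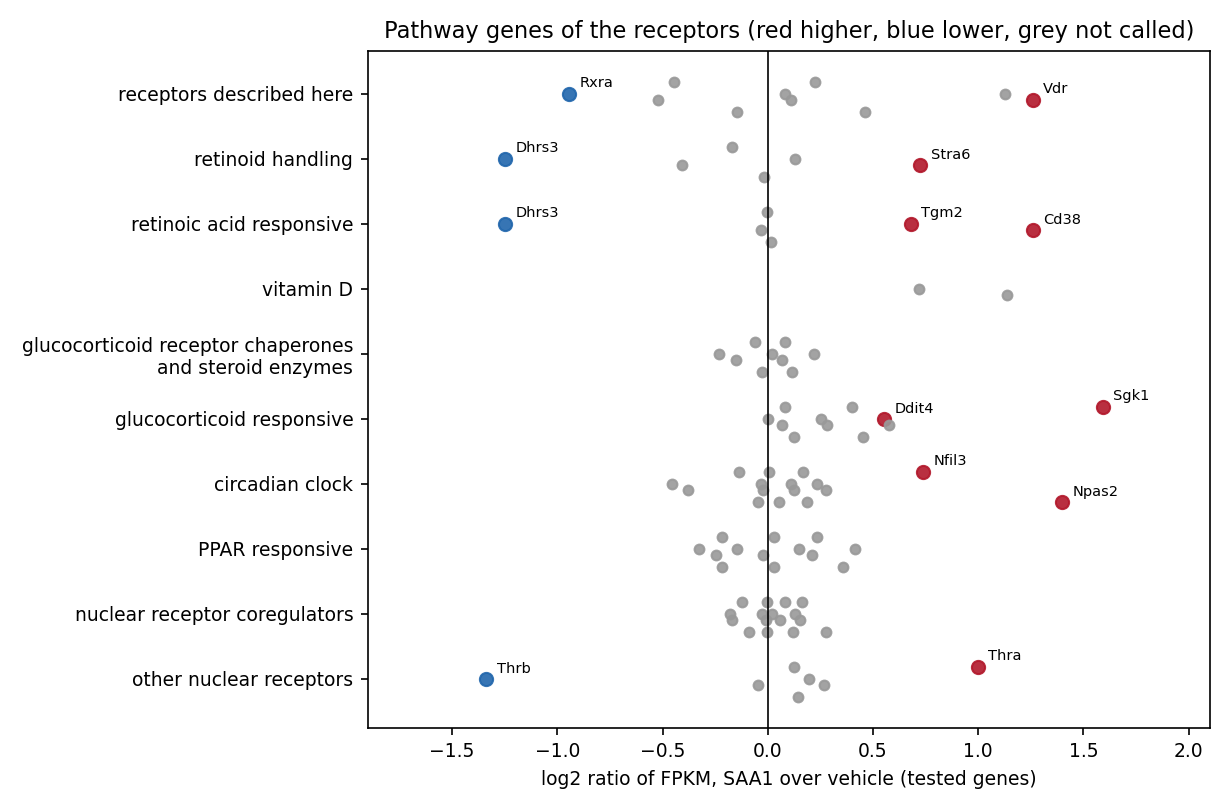
Log2 ratio of FPKM, SAA1 over vehicle, of the tested genes of each list, 1 point per gene, with vertical offsets only to separate points (red called higher, blue called lower, grey not called). Calls stand in both directions in the receptors, the retinoid lists and the other nuclear receptors, and on the higher side alone for Sgk1 (1.59), Ddit4 (0.55), Nfil3 (0.74) and Npas2 (1.40).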

How the data were processed

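The 4 libraries, 2 per group, were made with an Illumina TruSeq kit, per the labels' protocols, and groups were taken from the titles. TopHat2 and Cuffdiff, and the builds mm9 and mm10, are named in the submitters' processing notes. No source used here gives their versions, strand setting or scaling. The deposited FPKM is 1 value per group. The deposited test statistic is a score, the log ratio over its standard error, and the deposited p-value and q-value are the authors' own. The smallest p is 5e-05, shared by 300 genes.

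The design foresaw a model per library only had such values been given, so the authors' test, adjusted over all tested genes, was the main test. The q-value was recomputed as the Benjamini-Hochberg adjustment of the p-value, with a largest gap of 5.23e-07. Of 21458 symbols in the GRCm38 gene table, 99.0% overlapped its position, so coordinates are on mm10, counted from 1. List medians take tested genes whose higher group value is at least 1 FPKM and a pseudocount of 0.1, which understates changes of weak genes.

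The members and the 11 lists were chosen with earlier results of these data known. All members are named; of each pathway list, up to 6 called genes by adjusted p and then fold, and the 2 most abundant genes not called; of each marker list, the 2 most abundant tested genes, of which 1 is not reported here. The Il17a check and the genes given only to say that they were scarcely detected or not tested were added after their values were seen. The calculations were tested on simulated data, in Python 3.11.15 with pandas 2.3.3 and scipy 1.17.1. Alternatives were the threshold, a fold minimum, the adjustment, a normal p, shared loci, the pseudocount, the expression minimum and centring.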

Additional observations from a re-analysis of the deposited data

How the results depend on the processing

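Rxra and Vdr remained the called receptors under all 6 alternatives for calls, and no other receptor was called. All 6 reuse the deposited test statistic or p-value. The deposited adjusted p of 0.00191, folds above 1.5 and unshared loci fixed several outcomes in advance. Under either threshold, the fold minimum and the removal of shared loci, Rxra and Vdr could not lose their calls. With a normal p of the statistic their adjusted p was 0.000604 and 0.022. With a pseudocount of 1 FPKM the log2 ratio of Vdr was 0.58 and that of Nr1d1 0.36. Centring moved ratios by 0.02. Calls over all tested genes numbered 749, 436 at an adjusted p under 0.01 and 247 with the normal p. With the normal p, 1 gene remained called among retinoic acid-responsive genes (Dhrs3) and 1 among glucocorticoid-responsive genes (Sgk1). By the same p, 1 remained in the clock (Nfil3, adjusted p 0.0498, just under the threshold), 1 among other nuclear receptors (Thrb) and 0 among T cell markers. At a fold of at least 1.5, 1 glucocorticoid-responsive gene and 0 T cell markers were called. At an adjusted p under 0.01, 1 clock gene and 1 T cell marker were called, and at under 0.1, 1 PPAR-responsive gene. Adjusted over genes with at least 1 FPKM, 1 clock gene was called, since Npas2 was not among them. In the other 55 of 66 recounts of the lists, and in all 43 recomputed list medians, the count stayed within 1.5-fold of the main one or the median moved by less than the implied SE.

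No paired analysis was possible because the table holds 1 value per group, although the library titles share the numbers 1 and 2. For the same reason the replicate alternatives were not run. Depth is unknown, so receptors under 1 FPKM have no counting limit.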

Other observations

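The deposited p-values were smaller than those of a normal distribution of the deposited test statistic for 98.5% of the 11403 tested genes with a finite statistic. Among genes with a deposited p under 0.05, the median ratio of the normal p to the deposited p was 6.06. For Nr1d1 the deposited p was 0.0090 and the normal p 0.045, for Rarg 0.012 and 0.076, and for Nr1d2 0.014 and 0.080. The 3 receptors thus lie nearer to the threshold by the deposited p than by the statistic beside it, and the adjusted p with the normal p was 0.58, 0.77 and 0.78. The reason for the gap was not tested.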
